A study of Mus musculus with 5 samples.

Results

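The genes described here are the antioxidant enzymes of the glutathione and thioredoxin systems with NRF2, the transcription factor that controls many of them, and its inhibitor. They were taken by symbol from a list of 43 genes, and all 43 were found among the 24347 gene symbols of the deposited tables. RNA-seq libraries were made from cells sorted out of precancerous lesions in the mammary glands of MMTV-Wnt-1 mice, whose background mixed FVB, SJL and C57BL/6, so that every library, of either population, came from tissue carrying the Wnt-1 transgene, which the MMTV promoter drives in the mammary epithelium. There were 2 libraries of keratin 6a-positive (Krt6a+) cells, which the labels call precancerous stem cells and number 2 and 3, and 3 libraries of cells positive for whey acidic protein (WAP+), numbered 1 to 3. Each library was cDNA amplified from few cells, pooled after flow sorting with a TVA antibody, TVA being the receptor of an avian virus. The labels give no age of the mice, do not say how TVA marked either population, and leave the number of animals unstated, so the p-values below measure the spread between these libraries, which may be technical. In pooled cells, fewer cells of a type and less RNA per cell cannot be told apart.

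Glutathione is a small thiol made from cysteine, glutamate and glycine. Glutathione peroxidases use it to reduce peroxides, glutathione transferases join it to reactive electrophiles, and glutathione reductase restores it at the cost of NADPH. The thioredoxin system works in parallel and supplies the peroxiredoxins. NRF2, encoded by Nfe2l2, is held down by KEAP1 and, when released under oxidative or electrophilic stress, binds antioxidant response elements in the promoters of genes of both systems.

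Levels are FPKM, fragment numbers normalised for transcript length and for all mapped fragments, with the transcripts of a symbol summed. The gene that names each population differed as labelled: Krt6a was at FPKM 1380 and 1133 in the Krt6a+ pools and 168, 50.01 and 120.3 in the WAP+ pools, and Wap was at 50.1, 126 and 13.9 in WAP+ pools, with a listed 0 in both Krt6a+ pools. Other keratins and Epcam were read beside these, and in the test described below Krt5 alone of them passed (limma, adjusted p = 0.0275). Krt8, Krt18, Krt14 and Epcam did not pass (limma, adjusted p = 0.117, 0.0607, 0.209 and 0.195). Luminal Krt8 was at 66.2 and 719 in Krt6a+ libraries 2 and 3 and at 1664, 1917 and 1681 in WAP+ libraries 1 to 3. Krt6a+ library 3 thus lay between the other Krt6a+ library and the WAP+ libraries. Krt18, also luminal, was at 353 and 1283 against 4018, 3335 and 3534. The basal keratins were higher in Krt6a+ libraries, with Krt5 at 434 and 374 against 22.4, 13.4 and 34.7. Krt14 was at 2284 and 2263 against 936, 130 and 862. Epcam, an epithelial marker, was at 549 and 908 against 1408, 1108 and 1493. Of 8 macrophage and leukocyte markers 4 were at 0 in every library, Ptprc, Adgre1, Lyz2 and C1qa. The list summed to FPKM 14.5 and 20.2 for the Krt6a+ pools, against 10.9 to 27.8 for the WAP+ ones. Cd68 was above 0 in every library, at 6.49 and 17.8 against 9.08, 26.4 and 19.5. C1qb was at 8.00 and 2.43 in Krt6a+ libraries 2 and 3, with a listed 0 in every WAP+ pool. Cd74, at a listed 0 in both Krt6a+ pools, reached 0.744, 1.40 and 4.81 in WAP+ libraries 1 to 3. None of these passed (limma, adjusted p = 0.647, 0.124 and 0.311). Csf1r was above 0 in WAP+ library 1 alone, at 1.03. Erythroid markers, 4 of 6 at 0 throughout, and neutrophil markers, 5 of 6 at 0 throughout, summed to at most FPKM 1.22 and 0.624 in any library. Contractile myoepithelial markers, led by Acta2 and Tagln, summed to 1.64 and 3.83 in Krt6a+ and 29.2 to 49.3 in WAP+ libraries, with 4 of 6 above 0 in each of the former and 5 of 6 in each of the latter. Fibroblast markers, mostly Dcn, summed to 57.5 and 210.1 against 8.60 to 84.2, with 5 and 2 of 6 above 0 against 1 to 5. Of 6 adipocyte markers 5 were at 0 throughout, Adipoq among them, and Fabp4 was at 2188, 65.8 and 20.3 in WAP+ libraries and 0 in Krt6a+ libraries. Endothelial markers summed to 147 in WAP+ library 1, where 6 of 6 were above 0, and to at most 7.51 elsewhere. The part of these cells, and of the keratin levels of each library, in the differences below was not tested. The abundant genes Gapdh, Eno1, Rpl10 and Rpl11 were mostly listed at 0, 3 or 4 of the 4 in each library, and a listed 0 may therefore reflect a failed estimate.

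Differences are Krt6a+ minus WAP+ on the log2(scaled FPKM + 1) scale, tested with limma over 9682 genes with Benjamini-Hochberg adjustment, and a difference passed at an adjusted p under 0.05. Of the 43 members 39 were tested, having FPKM 1 or more in at least 2 libraries. Gsta3, Gstt1, Mgst2 and Sod3 were not. The glutathione transferases held the 2 members that passed, in opposite directions: Gsta4 was higher and Mgst1 lower in Krt6a+ libraries. That is 1 of 39 in each direction, where 0.258% of all tested genes passed as higher and 0.434% as lower. Counted at an unadjusted p under 0.05, 3 were higher (Gsta4, Cbr3 and Gsto1) and 6 were lower (Mgst1, Txnrd1, Gpx1, Sod2, Mgst3 and Sod1). These were 7.69% and 15.4% of the members tested, beside 7.66% and 9.45% of all genes. The lower count depended on the processing and fell to 3 with deposited FPKM and no library factor, beside 765 of the 9682 genes (limma). In scaled FPKM the 2 populations did not overlap for 4 members that were higher and 10 that were lower in Krt6a+ libraries, 10.3% and 25.6%. Of all tested genes 17.4% were higher and another 17.4% lower without overlap. Txn1 and Gstp1, among the 10, overlapped in FPKM as deposited. Cbr3, among the 4, was listed at 0 in WAP+ libraries 2 and 3, so its lack of overlap rests partly on values that may be failed estimates. The median difference of the 39 was -0.38, with 13 positive and 26 negative, and that of all tested genes was -0.01. A difference that did not pass is not shown to be absent, since the standard error of a member was 0.54 at the median.

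**Figure D1:**
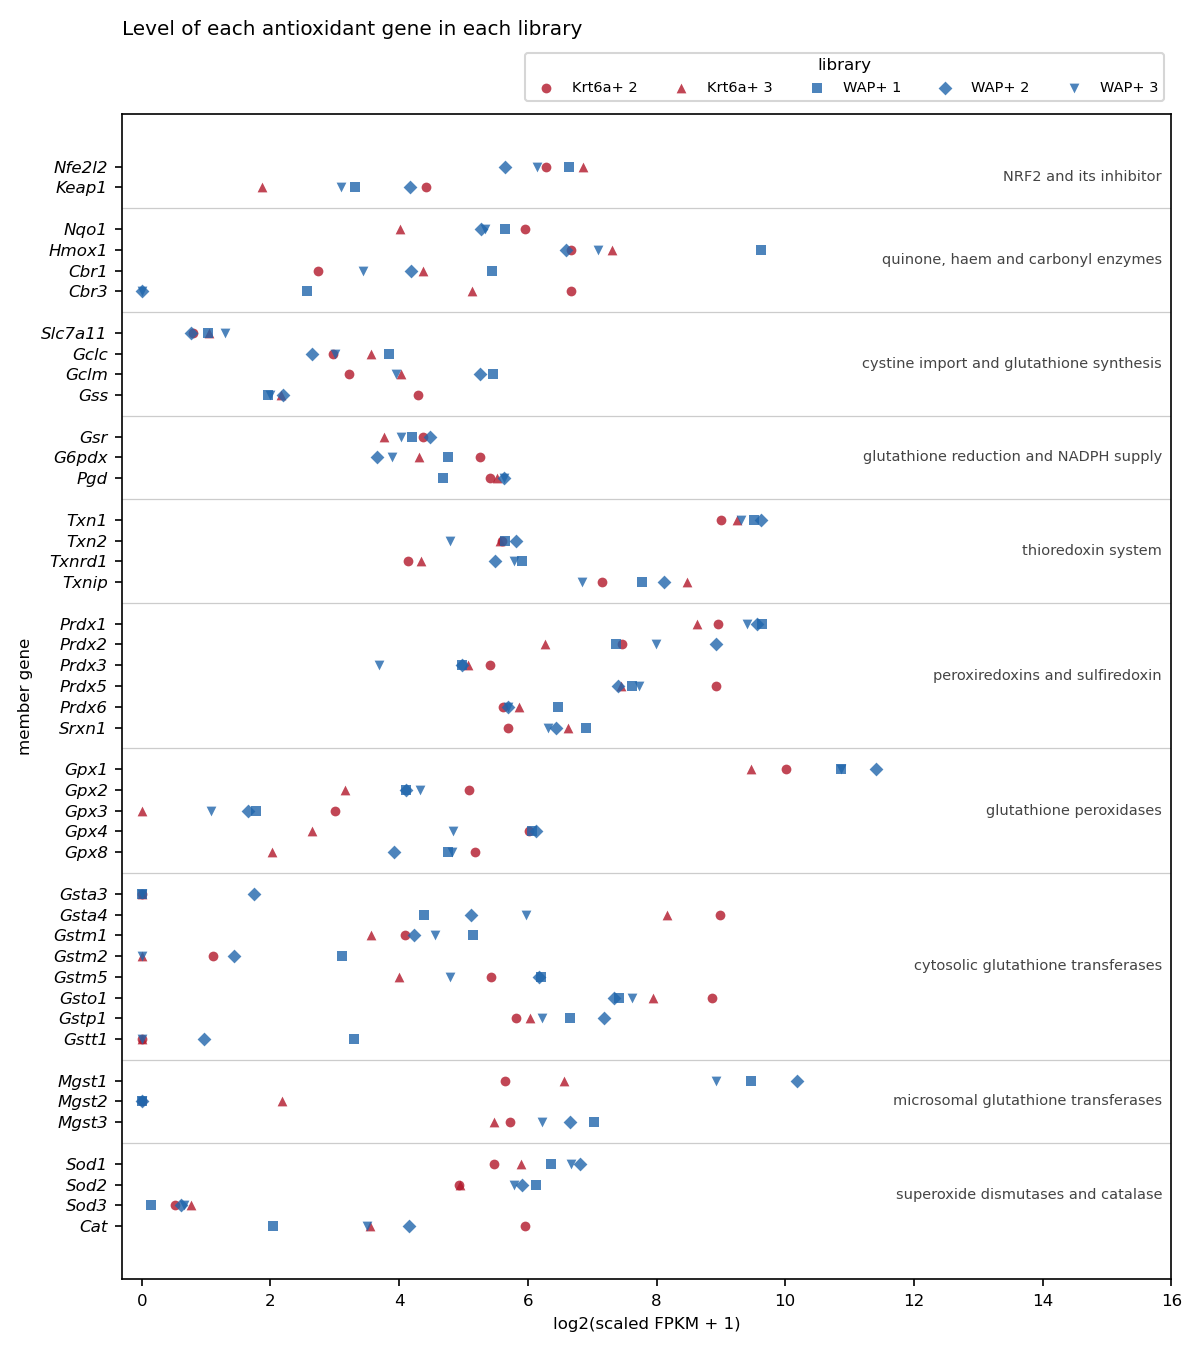
Level of each of the 43 antioxidant genes in each library as log2(scaled FPKM + 1), grouped by family, with red symbols for the 2 Krt6a+ libraries and blue symbols for the 3 WAP+ libraries. Gpx1 had the highest level in every library, the red symbols of Gsta4 lie right of all blue ones, and those of Mgst1 lie left of all blue ones.

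**Figure D2:**
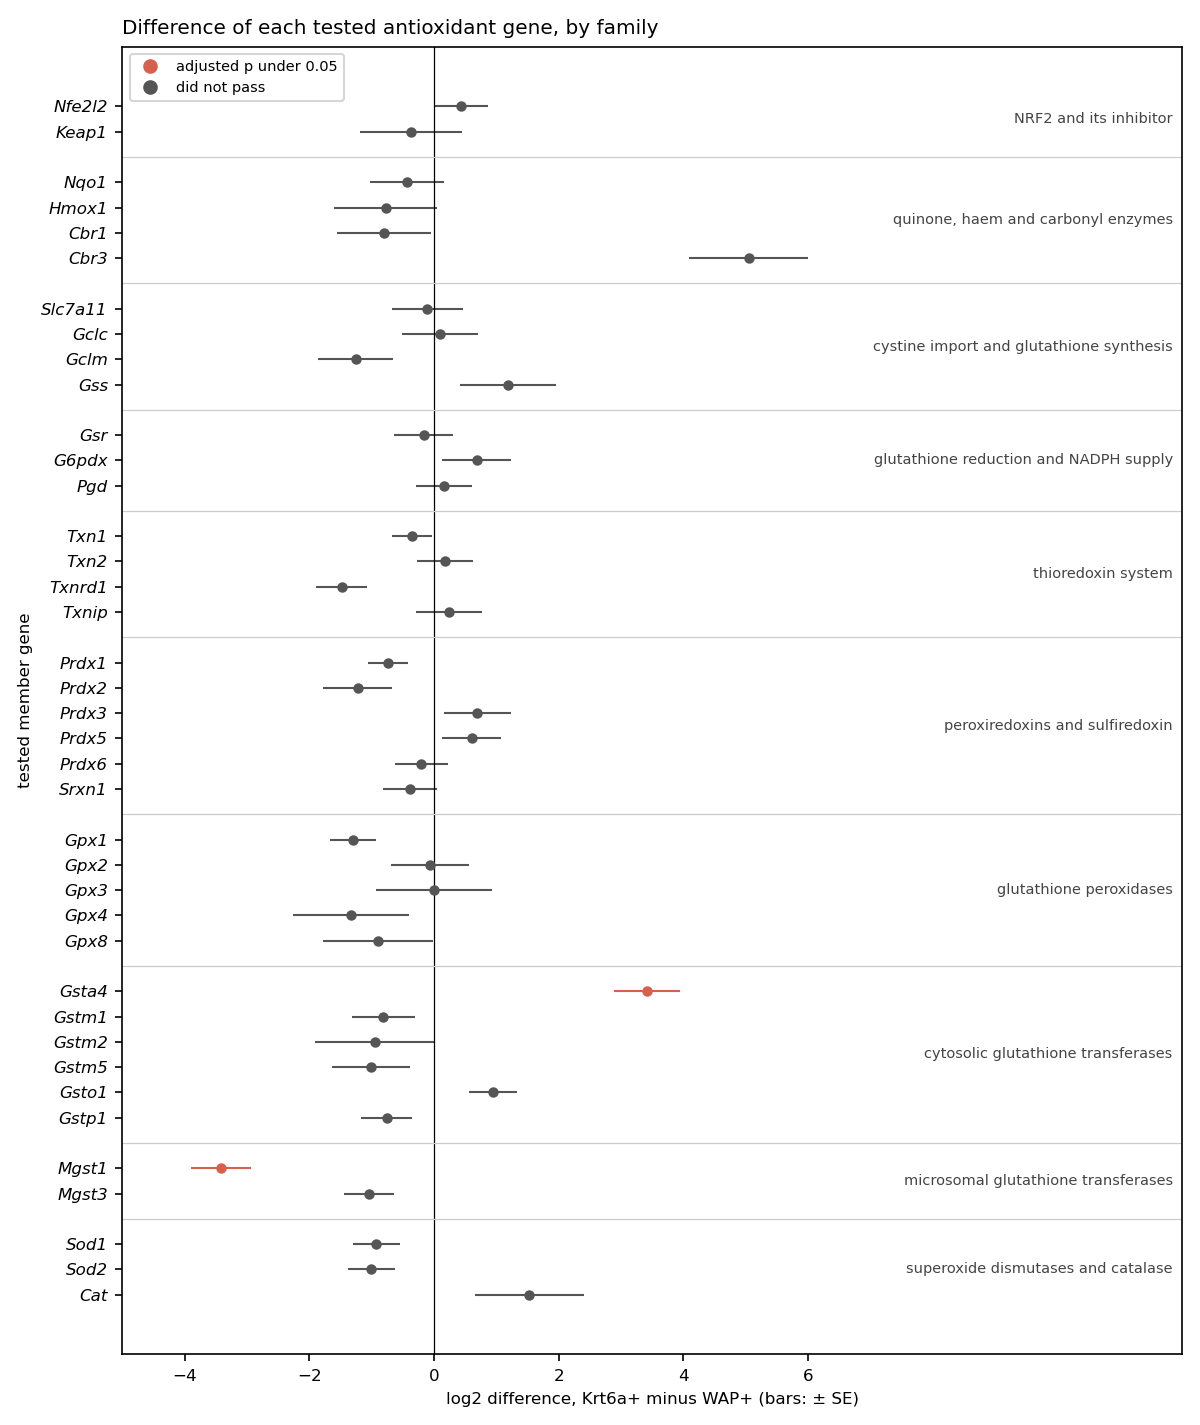
The log2 difference, Krt6a+ minus WAP+, of the 39 tested members with its standard error, grouped by family. The 2 members that passed are in red: Gsta4 at 3.42 and Mgst1 at -3.42.

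Gsta4, an alpha-class transferase known for conjugating the lipid peroxidation product 4-hydroxynonenal, was at FPKM 498 and 322 in Krt6a+ libraries 2 and 3 and at 22.8, 30.6 and 54.2 in WAP+ libraries 1 to 3. Both Krt6a+ values lay far above all WAP+ values, and the lower deposited bound of the former, 303 in Krt6a+ library 3, was above the upper deposited bound of the highest of the latter, 62.0 in WAP+ library 3. After scaling the Krt6a+ mean was 397 ± 158 (SD, n = 2) and the WAP+ mean 38.6 ± 21.5 (SD, n = 3), a log2 difference of 3.42 ± 0.54 (SE), 10.7-fold higher in Krt6a+ libraries (limma, adjusted p = 0.0448). The widths of the deposited bounds corresponded to 1125 to 2162 fragments in Krt6a+ and 74 to 194 in WAP+ libraries, so counting error was small beside the spread between libraries. The single Gsta4 transcript, NM_010357, lies on chromosome 9 from 78191966 to 78209349 in mm10. Without Krt6a+ library 2 the difference was 3.01 and did not pass (limma, adjusted p = 0.0828), and leaving out WAP+ library 1, 2 or 3 in turn gave 3.01, 3.36 and 3.80, also short of it (adjusted p = 0.135, 0.202 and 0.132).

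Mgst1, a microsomal transferase of the endoplasmic reticulum and outer mitochondrial membrane that also has peroxidase activity, showed the opposite pattern. Its FPKM was 48.1 and 106 in Krt6a+ libraries 2 and 3 and 808, 1052 and 425 in WAP+ libraries 1 to 3. The higher Krt6a+ value was that of library 3, and its upper deposited bound of 118 was below the lower bound of 403 in WAP+ library 3. After scaling the Krt6a+ mean was 71.3 ± 31.5 (SD, n = 2) and the WAP+ mean 784 ± 342 (SD, n = 3), a log2 difference of -3.42 ± 0.48 (SE), 10.7-fold higher in WAP+ libraries (limma, adjusted p = 0.0383). Without Krt6a+ library 2 the difference was -2.96 (limma, adjusted p = 0.0554), and leaving out WAP+ library 1, 2 or 3 in turn gave -3.47, -3.13 and -3.75 (adjusted p = 0.135, 0.202 and 0.140), none past the threshold. Over all 15 alternatives run the adjusted p ranged from 0.0118 to 0.202 for Gsta4 and from 0.00727 to 0.202 for Mgst1, and both calls were also lost with a pseudocount of 0.1 and without the filter on low values. The Mgst1 transcript NM_019946 spans 138140537 to 138156752 on chromosome 6 in mm10. Mgst3, its relative in the same membrane family, was at 50.9 and 48.8 in the Krt6a+ pools and 148, 91.1 and 64.2 in the WAP+ pools, without overlap but short of the threshold (limma, log2 -1.04 ± 0.40 SE, adjusted p = 0.237). Mgst2 was listed at 0 in every library but Krt6a+ library 3, where it was at 3.97.

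None of the other cytosolic transferases passed. Gsto1, an omega-class enzyme that reduces mixed disulfides and dehydroascorbate, was at 454 and 276 in the Krt6a+ pools and 193, 146 and 171 in the WAP+ pools, higher in both Krt6a+ libraries but not past the threshold (limma, log2 0.94 ± 0.39 SE, adjusted p = 0.266). Gstp1, the pi-class enzyme, was at 54.2 and 72.6 in the Krt6a+ pools and 114, 131 and 64.1 in the WAP+ pools (limma, log2 -0.76 ± 0.41 SE, adjusted p = 0.397). Among the mu-class genes Gstm5 was at 41.1 and 16.9 against 82.5, 64.6 and 23.3, and Gstm1 at 15.7 and 12.2 against 39.1, 16.1 and 19.6, and neither passed (limma, adjusted p = 0.455 and 0.451). Gstm2 was at 1.13 and 0 against 8.67, 1.53 and 0. Gsta3 was above 0 in WAP+ library 2 alone, at 2.12, and Gstt1 in WAP+ libraries 1 and 2, at 10.02 and 0.862. The mu-class genes are a cluster of close paralogs on chromosome 3, and how shared reads were divided among them, or between Gstp1 and its near copy, is uncertain. As shares of the summed level of the 11 transferases in the list, Gsta4 made up 42.8% and 37.5% in the Krt6a+ pools and 1.60%, 1.99% and 6.60% in WAP+ libraries, and Mgst1 made up 4.13% and 12.3% against 56.6%, 68.5% and 51.7%. These shares rest on the same values as the differences above and add no test. The 8 cytosolic genes summed to a scaled FPKM of 1087 and 621 in the Krt6a+ pools and 412, 432 and 380.2 in the WAP+ pools, and the 3 microsomal genes to 101 and 140.4 against 839, 1258 and 560.0.

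**Figure D3:**
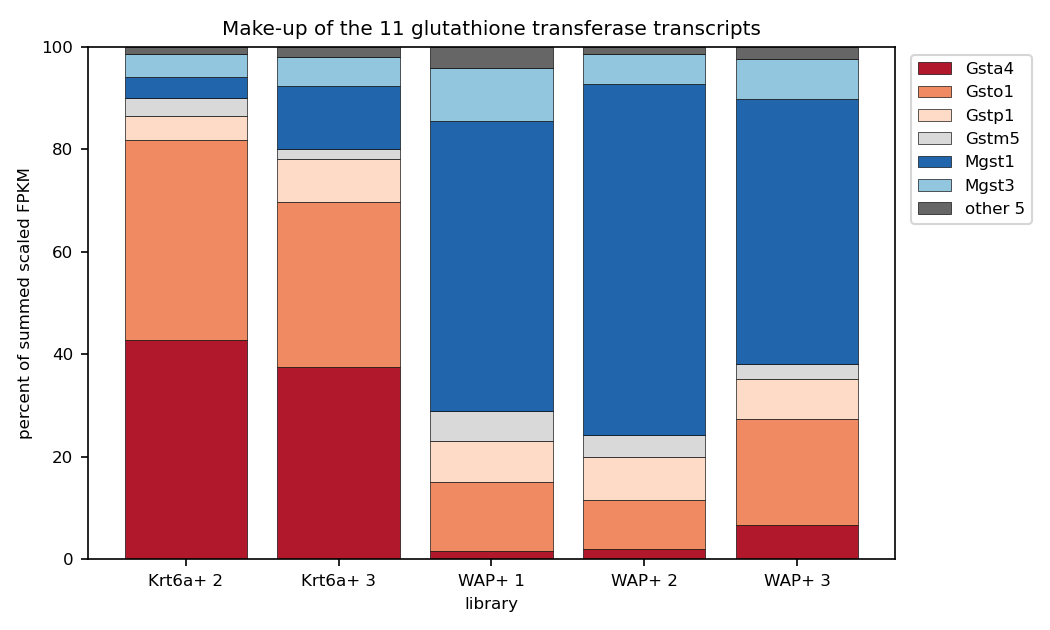
Share of the summed scaled FPKM of the 11 glutathione transferase genes taken by each gene in each library, as stacked bars that add to 100%. Gsta4 and Gsto1 fill most of both Krt6a+ bars, and Mgst1 takes 51.7% to 68.5% of the WAP+ bars.

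Among the quinone, haem and carbonyl enzymes, Cbr3 had the largest positive difference of any tested member. Cbr3, a carbonyl reductase, was at FPKM 99.2 and 38.3 in Krt6a+ libraries 2 and 3, at 5.60 in WAP+ library 1, and listed at 0 in WAP+ libraries 2 and 3. The populations did not overlap as listed, though this and the size of the difference rest partly on the listed 0 values, which may be failed estimates. The spread was wide and the gene missed the threshold (limma, log2 5.05 ± 0.95 SE, adjusted p = 0.0570). Its size depended on the pseudocount, at 7.32 with 0.1 and 3.36 with 5, and the latter passed (limma, adjusted p = 0.0473), as did a filter at FPKM 5 (adjusted p = 0.0417), with a range of 0.0417 to 0.202 over the alternatives run. Cbr1, its neighbour on chromosome 16 and the more broadly active carbonyl reductase, was at 5.53 and 22.2 in the Krt6a+ pools and 48.5, 15.7 and 8.63 in the WAP+ pools (limma, log2 -0.81 ± 0.75 SE, adjusted p = 0.632). Cbr3 was above Cbr1 in both Krt6a+ libraries and below it in WAP+ library 1, and no order is read from its listed 0 in WAP+ libraries 2 and 3. Nqo1, the quinone reductase often read as a reporter of NRF2 activity, was at 59.8 and 17.1 against 55.8, 34.3 and 34.5, with the 2 Krt6a+ libraries at either end of the range (limma, log2 -0.43 ± 0.60 SE, adjusted p = 0.766). Hmox1, the haem oxygenase that is induced by haem and stress, was at 99.3 and 177 in the Krt6a+ pools and 896, 86.5 and 118 in the WAP+ pools (limma, log2 -0.77 ± 0.83 SE, adjusted p = 0.685). The single high value was WAP+ library 1, which also held the endothelial markers and the most Fabp4, and without that library the difference was 0.14.

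The regulators themselves overlapped between populations. Nfe2l2 was at 75.5 and 129 in the Krt6a+ pools and 112, 44.7 and 60.8 in the WAP+ pools (limma, log2 0.43 ± 0.44 SE, adjusted p = 0.669). Keap1, the adaptor that hands NRF2 to a ubiquitin ligase, was at 19.97 and 3.01 against 10.1, 15.5 and 6.57 (limma, log2 -0.38 ± 0.82 SE, adjusted p = 0.869). Both are regulated mainly at the protein level, which transcript levels do not show.

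None of the genes that import cystine, make glutathione or keep it reduced passed. Slc7a11, the cystine transporter, was low throughout, at 0.721 and 1.19 in the Krt6a+ pools and 1.19, 0.644 and 1.27 in the WAP+ pools. Gclc and Gclm are the catalytic and modifier subunits of the rate-limiting ligase. Gclc was at 6.67 and 12.2 against 15.3, 4.79 and 6.11, and Gclm at 8.16 and 17.3 against 49.1, 33.7 and 12.6 (limma, log2 -1.26 ± 0.60 SE for Gclm, adjusted p = 0.335). The WAP+ libraries thus had Gclm above Gclc in each case, and the order in Krt6a+ libraries was the same with a smaller gap. Gss, which adds glycine in the last step, was at 18.3 in Krt6a+ library 2 and between 2.62 and 3.95 in the other 4 libraries. Gsr, glutathione reductase, stayed between 13.4 and 19.8 in all 5 libraries. Of the NADPH-producing enzymes of the pentose phosphate pathway, G6pdx was at 36.3 and 21.2 against 29.6, 10.5 and 12.05, and Pgd at 40.9 and 50.9 against 28.1, 44.2 and 42.4, with overlapping groups for both (limma, adjusted p = 0.572 and 0.906).

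In the thioredoxin system Txnrd1 had the difference of greatest size, and no gene passed. Txnrd1, the cytosolic thioredoxin reductase and a selenoprotein, was at FPKM 16.3 and 21.8 in the Krt6a+ pools and 67.6, 40.0 and 47.1 in the WAP+ pools. Its groups did not overlap, with scaled means of 18.0 ± 1.88 (SD, n = 2) and 52.4 ± 7.73 (SD, n = 3), but it missed the threshold (limma, log2 -1.49 ± 0.40 SE, adjusted p = 0.125). The sum covers 4 deposited transcripts, and the one assigned most reads was NM_001042513 in Krt6a+ library 2 and every WAP+ library, at 13.4 and at 67.6, 30.2 and 47.1, while in Krt6a+ library 3 it was listed at 0 and NM_015762 was at 13.8. With the row of highest mean, NM_001042513, taken in every library in place of the sum, the Txnrd1 difference was -3.63. That value includes the listed 0 in Krt6a+ library 3, and so depends on how reads were assigned among the transcripts. Txn1, cytosolic thioredoxin, was among the most abundant members, at 501 and 688 against 829, 713 and 552 (limma, log2 -0.35 ± 0.32 SE, adjusted p = 0.630). Txn2, its mitochondrial counterpart, was at 46.7 and 52.1 against 55.7, 50.1 and 23.3 (limma, adjusted p = 0.896). Txnip, the thioredoxin-binding inhibitor that responds to glucose, ranged as widely within a population as between them, at 139 and 401 in the Krt6a+ pools and 248, 251 and 99.7 in the WAP+ pools.

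Peroxiredoxins reduce hydrogen peroxide with thioredoxin or glutathione. The 5 among the members had differences of both signs, and none of these 5 passed. Prdx1, the main cytosolic form, was at 486 and 448 in the Krt6a+ pools and 903, 683 and 594 in the WAP+ pools, below all WAP+ values in both Krt6a+ libraries (limma, log2 -0.74 ± 0.32 SE, adjusted p = 0.299). Prdx2, another cytosolic form, was at 172 and 86.2 against 188, 442 and 220.2 (limma, log2 -1.23 ± 0.55 SE, adjusted p = 0.311). The 2 mitochondrial enzymes had positive differences: Prdx3 was at 40.8 and 36.6 against 34.9, 27.6 and 10.4, and Prdx5, which is also found in peroxisomes and cytosol, at 477 and 197 against 224, 153 and 185 (limma, adjusted p = 0.555 and 0.557). The positive Prdx5 difference rested on Krt6a+ library 2, and without it the log2 difference was -0.13. Prdx6, a form that uses glutathione, was at 47.2 and 64.7 against 99.5, 45.9 and 44.2. Srxn1, the sulfiredoxin that repairs overoxidised peroxiredoxins, was at 49.6 and 110.4 against 135, 77.7 and 68.2 (limma, adjusted p = 0.699).

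Gpx1 was the most abundant of the 43 members in all 5 libraries. Gpx1, the cytosolic glutathione peroxidase, was at FPKM 1016 and 797 in the Krt6a+ pools and 2120, 2483 and 1635 in the WAP+ pools. Both Krt6a+ values lay below all WAP+ values, with scaled means of 872 ± 234 (SD, n = 2) and 2155 ± 500.2 (SD, n = 3), and the threshold was missed (limma, log2 -1.31 ± 0.37 SE, 2.47-fold higher in WAP+ libraries, adjusted p = 0.132). It made up 88.2% and 97.8% of the summed level of the 5 peroxidases in Krt6a+ and 94.4%, 96.4% and 96.2% in WAP+ libraries. Gpx4, which reduces phospholipid peroxides in membranes, was at 62.7 and 5.94 against 74.8, 62.9 and 24.0, and Gpx8, of the endoplasmic reticulum, at 34.6 and 3.44 against 29.8, 12.8 and 23.8 (limma, adjusted p = 0.500 and 0.657). For both, Krt6a+ library 3 was the lowest of the 5 libraries and Krt6a+ library 2 was within or above the range of the WAP+ values. Gpx2, an epithelial form, was at 32.2 and 8.94 against 18.6, 14.7 and 16.7, and Gpx3, the secreted form, at 6.83 and 0 against 2.74, 1.95 and 0.977.

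Of the enzymes that remove superoxide and hydrogen peroxide directly, the 2 intracellular dismutases were lower in both Krt6a+ libraries than in any WAP+ library, in differences that did not pass. Sod1, the copper-zinc form of the cytosol, was at 42.4 and 66.1 in the Krt6a+ pools and 92.1, 101 and 88.5 in the WAP+ pools (limma, log2 -0.93 ± 0.38 SE, adjusted p = 0.261). Sod2, the manganese form of mitochondria and a known NF-kB target, was at 28.8 and 33.6 against 78.6, 53.9 and 47.3 (limma, log2 -1.01 ± 0.38 SE, adjusted p = 0.229). Sod3, the extracellular form, was under FPKM 1 in all libraries. Catalase (Cat), which breaks down hydrogen peroxide in peroxisomes, was at 60.2 in Krt6a+ library 2 and 12.1 in library 3, while the WAP+ pools had 3.55, 15.2 and 8.97 (limma, log2 1.53 ± 0.88 SE, adjusted p = 0.422).

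The wider pathway was read from 71 further genes of NRF2 partners, glutathione and thiol metabolism, iron storage and detoxification, of which 55 were tested. None was higher and 1 was lower at an adjusted p under 0.05 (limma), where 0.258% and 0.434% of all tested genes passed. Counted at an unadjusted p under 0.05, 4 were higher and 12 lower, 7.27% and 21.8% of the 55, beside 7.66% and 9.45% of all tested genes, so that the share of higher genes was near that of all genes. The median difference of the 55 was -0.55. The gene that passed was Prdx4, the peroxiredoxin of the endoplasmic reticulum, which was at FPKM 10.6 and 20.2 in the Krt6a+ pools and 168, 149 and 159 in the WAP+ pools (limma, log2 -3.46 ± 0.40 SE, 11.03-fold higher in WAP+ libraries, adjusted p = 0.0202). Leaving out WAP+ library 1, 2 or 3 ended this call at differences of -3.55, -3.50 and -3.42 (limma, adjusted p = 0.130, 0.150 and 0.140), as did omitting the filter or the variance trend (0.0952 and 0.0553), and over all 15 alternatives the adjusted p ran from 0.00439 to 0.150. Prdx4 had the largest moderated statistic of the 55, and those next in order were also lower in Krt6a+ libraries without passing. Ftl1, the ferritin light chain, was at 161 and 696 against 1820, 1462 and 1232, and Park7, a redox-sensitive chaperone, at 76.6 and 70.5 against 181, 331 and 243 (limma, adjusted p = 0.0982 for both). The glutaredoxins Glrx, at 2.91 and 34.8 against 63.7, 79.6 and 107, and Glrx5, at 70.8 and 74.7 against 136, 188 and 225, and the biliverdin reductase Blvra, at 0.177 and 2.07 against 6.01, 7.80 and 12.1, followed (limma, adjusted p = 0.134, 0.150 and 0.156). The 4 higher genes, named after their values were seen, were Sesn2, a stress-induced sestrin, Mafg and Maff, small MAF partners of NRF2, and Cbr4, a mitochondrial reductase. Mafg was at 107 and 102 in the Krt6a+ pools and 42.2, 51.4 and 26.3 in the WAP+ pools, and Sesn2 at 17.1 and 23.4 against 8.34, 0.706 and 2.65 (limma, adjusted p = 0.173 and 0.172). Maff was at 38.8 and 58.2 against 14.1, 8.996 and 23.3, and Cbr4 at 11.6 and 51.2 against 7.97, 2.99 and 7.60 (limma, adjusted p = 0.195 and 0.245). The lower genes at that unadjusted threshold not given above were Mt2, Ephx1, Gstt2, Fth1, Taldo1 and Glrx3, with log2 differences from -2.72 for Ephx1 to -0.92 for Taldo1 and none past the adjusted threshold.

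RefSeq promoters, from 250 bases before to 50 after a transcription start in GRCm38.p6 (the mm10 assembly), were found for 37 of the 43 members. None was found for Gsta4, Hmox1, Gclc, Gsr, Prdx6 and Sod3. Gsta4, the member that passed as higher, was therefore not searched, and whether its promoter holds either motif is not known here. They were searched on both strands for the core of the antioxidant response element, TGACNNNGC, and for the AP-1 motif, TGANTCA, which can overlap it. The core was in 11 of 45 member promoters (24.4%), in 14.5% of the promoters of all tested genes and in 12.4% of all 32851 promoters. The AP-1 motif was in 5 of 45 (11.1%), 5.35% and 7.81% of the same sets. Since known NRF2 targets were among the genes listed, the first share is not an independent finding. The members with a core were Nfe2l2, Gclm, G6pdx, Pgd, Txnrd1, Prdx1, Srxn1, Gsta3, Gstm5, Mgst1 and Sod1. The 10 of these that were tested had differences from -3.42 to 0.68, 7 negative and 3 positive, with a median of -0.83, and the 24 tested members whose windows held no core had 16 negative and 8 positive, with a median of -0.36. Among members whose scaled groups did not overlap and were lower in Krt6a+ libraries, Mgst1, Txnrd1, Prdx1 and Sod1 hold a core, and Txn1, Gpx1, Gstm1, Gstp1, Mgst3 and Sod2 hold none. The 250 bases before the start are printed for those 4 with a core, for Gpx1 as a lower gene with neither motif, and for Cbr3, which was higher and holds neither. Capitals mark the motifs. Prdx1 has 2 AP-1 motifs, and its core overlaps the one nearer the start.
Mgst1 (chr6:138140277-138140526, plus strand): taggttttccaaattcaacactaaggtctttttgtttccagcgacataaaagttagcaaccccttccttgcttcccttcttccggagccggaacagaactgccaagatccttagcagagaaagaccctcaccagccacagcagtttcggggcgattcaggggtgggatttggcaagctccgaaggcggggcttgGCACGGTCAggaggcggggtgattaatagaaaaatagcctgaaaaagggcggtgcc
Txnrd1 (chr10:82858956-82859205, plus strand): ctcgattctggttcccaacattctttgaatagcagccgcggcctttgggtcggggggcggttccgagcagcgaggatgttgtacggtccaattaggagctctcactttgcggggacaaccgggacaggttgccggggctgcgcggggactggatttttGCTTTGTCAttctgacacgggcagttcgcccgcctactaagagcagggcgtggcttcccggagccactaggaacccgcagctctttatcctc
Prdx1 (chr4:116685349-116685598, plus strand): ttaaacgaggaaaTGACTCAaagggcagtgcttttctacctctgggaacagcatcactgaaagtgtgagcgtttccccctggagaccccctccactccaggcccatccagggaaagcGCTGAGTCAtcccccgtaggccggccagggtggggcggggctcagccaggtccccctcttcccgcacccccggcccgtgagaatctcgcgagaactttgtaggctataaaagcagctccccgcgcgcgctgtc
Sod1 (chr16:90220512-90220761, plus strand): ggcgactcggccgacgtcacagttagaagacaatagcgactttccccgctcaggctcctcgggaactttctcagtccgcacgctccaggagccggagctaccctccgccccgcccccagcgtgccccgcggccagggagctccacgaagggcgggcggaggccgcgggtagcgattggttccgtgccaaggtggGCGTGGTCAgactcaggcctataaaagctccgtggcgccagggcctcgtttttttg
Gpx1 (chr9:108338830-108339079, plus strand): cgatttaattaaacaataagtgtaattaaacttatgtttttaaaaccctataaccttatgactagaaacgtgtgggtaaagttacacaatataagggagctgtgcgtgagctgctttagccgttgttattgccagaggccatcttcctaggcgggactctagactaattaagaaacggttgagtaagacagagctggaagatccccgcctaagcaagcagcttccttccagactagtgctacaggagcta
Cbr3 (chr16:93682969-93683218, plus strand): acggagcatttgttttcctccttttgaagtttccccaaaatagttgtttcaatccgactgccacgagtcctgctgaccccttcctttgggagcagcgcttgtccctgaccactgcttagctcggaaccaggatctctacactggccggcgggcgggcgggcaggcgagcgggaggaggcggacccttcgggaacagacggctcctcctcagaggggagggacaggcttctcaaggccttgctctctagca
The core begins 56 bases before the start in Mgst1, 92 in Txnrd1, 133 in Prdx1 and 56 in Sod1, each on the reverse strand, and the Txnrd1 window is the one before the start shared by NM_001042513 and NM_015762. The other annotated promoters of Mgst1 and Txnrd1 hold neither motif. They include the one of Txnrd1 transcript NM_001042514, which was at FPKM 2.88 and 7.97 in Krt6a+ libraries and listed at 0 in WAP+ libraries. These are matches of letters in a short window, not measured binding.

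**Figure D4:**
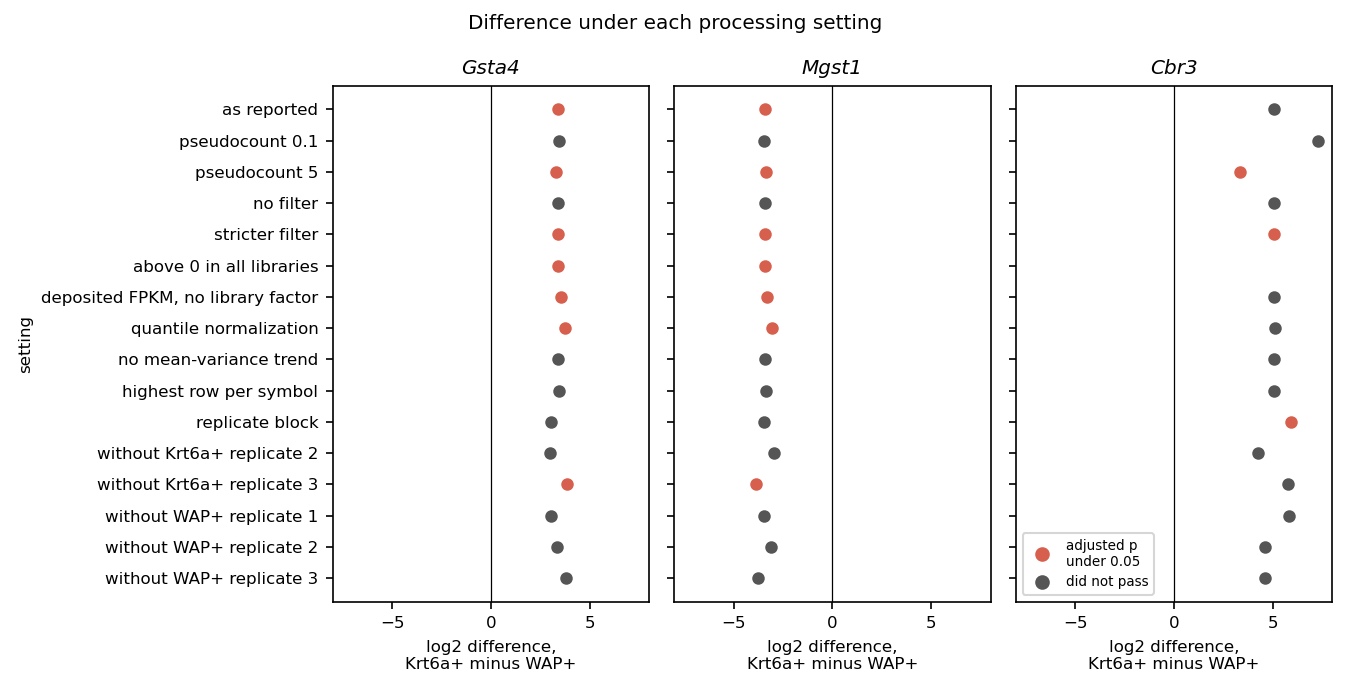
The log2 difference, Krt6a+ minus WAP+, of Gsta4, Mgst1 and Cbr3 as reported and under each alternative processing setting, with red points where the adjusted p was under 0.05; Cbr3 has no value where genes at 0 in any library were left out. Each gene kept its sign in every setting shown, and Gsta4 and Mgst1 passed in 6 of 15 alternatives each.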

How the data were processed

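RNA-seq was run on 2 Krt6a+ and 3 WAP+ pools of sorted cells. Per the labels' protocols, cDNA was amplified with the SMART-Seq v4 low-input kit, which does not mark strand, and tagmented with Nextera. TopHat, Cufflinks and mm10 are named in the submitters' processing notes, with versions and filters not given in the sources used here. The deposited tables give, per the file headers, FPKM per RefSeq transcript with lower and upper bounds, normalized by the authors for length and mapped fragments. Such values are not counts, so no count model was used.

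Rows were summed by symbol. FPKM was divided by a library factor, taken as its median ratio to the gene-wise geometric mean, over the 5334 genes that reached FPKM 1 in every library (0.980 and 1.13 for Krt6a+, 1.14, 0.909 and 0.873 for WAP+). Genes at FPKM 1 or more in at least 2 libraries were tested, 9682 in all, on log2(scaled FPKM + 1) with limma 3.58.1 in R 4.3.3 (eBayes with a mean-variance trend, two-sided, 3 residual degrees of freedom), with p adjusted over all of them. The added pseudocount understates the change of low genes. Errors are SD of scaled FPKM over libraries and moderated SE of log2 differences. An exact permutation test of 2 against 3 libraries cannot go below p = 0.1 and was not used. The procedure was run on simulated libraries, with spreads taken from these data and noise drawn independently for each value. Its performance on the real libraries is not read from that run. Fragments behind a value were estimated from the deposited bounds and cover counting error only. Reads of 12 members that overlap another annotated gene (Gclm, Gss, Gsr, G6pdx, Txnrd1, Txnip, Prdx1, Prdx5, Gpx8, Gsta3, Gstm5 and Mgst2) could not be assigned by strand.

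The members, families, wider list and marker lists were chosen with earlier results of these data known. Values are given in every library for members with a mean scaled FPKM of 20 or more or an unadjusted p under 0.05, and others by range or in a clause. From the wider list, the 6 genes with the largest moderated statistic and any that passed are named by rule, and the others at an unadjusted p under 0.05 were named after their values were seen. Alternatives changed the pseudocount, filter, scaling, variance model, choice of transcript row, replicate block and each library.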

Additional observations from a re-analysis of the deposited data

How the results depend on the processing

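Each alternative changed 1 choice. Genes called higher and lower among all tested, 25 and 42 as reported, numbered 6 and 20 with a pseudocount of 0.1, 41 and 31 with 5, 2 and 3 with no filter, 71 and 92 with a filter at FPKM 5, 76 and 91 when a gene had to exceed 0 everywhere, 23 and 27 with deposited FPKM and no library factor, 39 and 39 with quantile normalization, 7 and 9 without the variance trend, 8 and 16 when the highest row stood for a symbol, and 15 and 19 with a replicate block. Leaving out 1 library gave 2 to 44 higher and 3 to 103 lower.

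Members called higher, 1 as reported, numbered 0 with a pseudocount of 0.1, without a filter, without the variance trend and when the highest row stood for a symbol, and 2 (Gsta4 and Cbr3) with a pseudocount of 5 and with the filter at FPKM 5. With the replicate block there was 1 higher, Cbr3 in place of Gsta4 (adjusted p = 0.0483 and 0.0896). Members called lower, 1 as reported, numbered 0 in those same 4 settings and with the replicate block, and the member was Mgst1 in every other setting where 1 was called. Leaving out 1 library gave 0 to 1 in each direction. Both calls held without Krt6a+ library 3 and were lost without any other library. Gsta4 stayed between 3.01 and 3.84 and Mgst1 between -3.87 and -2.96 over all 15 alternatives, with adjusted p from 0.0118 to 0.202 and from 0.00727 to 0.202, so the calls were lost while the differences moved little. With 1 Krt6a+ library left, its spread is assumed to be that of the others. The median difference of the tested members ran from -0.50 to -0.17. Members lower at an unadjusted p under 0.05 (limma), 6 as reported beside 915 genes, numbered 3 beside 765 with deposited FPKM and no library factor. They numbered 3 beside 803 without the variance trend, 4 beside 789 with quantile normalization and 7 beside 958 with a pseudocount of 0.1. Leaving out 1 WAP+ library gave 3 to 7.

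Of the 30 members with values in each library, 19 kept their sign in every alternative run and 11 did not, none of which passed in any. Signs changed for Hmox1 (0.15), Pgd (-0.16) and Prdx6 (0.055) with the replicate block, for Txn1 (0.27) with quantile normalization and for Txnip (-0.28) with the highest row per symbol. Leaving out 1 library also changed signs, with differences from -1.40 to 0.54 for Nqo1, -1.40 to 0.14 for Hmox1, -0.18 to 0.29 for Pgd, -0.17 to 0.33 for Txn2, -0.41 to 0.90 for Txnip, -0.13 to 1.35 for Prdx5, -0.37 to 0.038 for Prdx6, -0.85 to 0.085 for Srxn1, -3.02 to 0.36 for Gpx4 and -2.48 to 0.69 for Gpx8. The cause was not tested. Whether the numbers shared by Krt6a+ and WAP+ libraries pair them is not known. Same-numbered libraries deviated from their group means with r = 0.0495 for number 2 and 0.000266 for number 3. The deviations of the 2 Krt6a+ libraries are equal and opposite by construction, so these values cannot decide it. WAP+ library 1 drops out of the block.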
